A study of Mus musculus with 9 samples.

Results

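The 10 genes described here build, coat, break down and supply stored triglyceride: Lpin1, Lpin2, Dgat1, Dgat2, Plin2, Plin3, Pnpla2, Mgll, Lpl and Angptl4. They were chosen by name, with earlier results of these data known. Each was read through the probe set that names that gene alone, and all 10 were found among the 19938 genes measured. Each had 1 such probe set.

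The RNA came from mouse dendritic cells grown in culture from bone marrow progenitors, with 3 arrays in each of 3 groups. Wild-type cells, which were untransduced, were either left unstimulated or given bacterial lipopolysaccharide (LPS, the ligand of Toll-like receptor 4) at 100 ng/ml for 4 h. The third group received the same LPS and carried a retroviral hairpin in pSir-delta U6CHisD against JmjD2d, the histone H3 lysine 9 demethylase encoded by Kdm4d. Infection and selection (in 2 mM histidinol) are given for the hairpin cells alone, and no array of a control hairpin or of unstimulated knockdown cells was analysed here, so effects of JmjD2d, infection and selection cannot be told apart. All groups were differentiated for 8 days, in 4% GM-CSF supernatant with 5 ng/ml SCF for 4 days and then in GM-CSF without SCF, after the progenitors had grown with 20 ng/ml of each of the cytokines SCF, IL-3 and IL-6.

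Cells store fatty acids as triglyceride in lipid droplets. Phosphatidate phosphatases of the lipin family and the diacylglycerol acyltransferases carry out the last steps of synthesis, perilipins coat the droplet surface, and lipases release the fatty acids again in sequence. Lipoprotein lipase brings in fatty acids from outside the cell and is inhibited by Angptl4. Macrophages and dendritic cells can accumulate such droplets during inflammatory activation. Several genes of this system, among them Plin2 and Angptl4, are known targets of PPAR nuclear receptors in other tissues.

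Values are log2 expression from the authors' RMA processing, so a difference of 1 is a 2-fold change. A change is called where limma's adjusted p is under 0.05 (Benjamini-Hochberg over all genes). Counts at an unadjusted p under 0.05 are also printed, and the share of all genes at that threshold is not given here. The shares of all genes called do not apply to those counts. The labels number the arrays of each group 1 to 3, and values of a group are given in that order. The labels do not state what a number marks, and arrays of the same number were taken as pairs from a check of correlations given below. A fit with the number as a block is called the paired fit. Paired values are printed where they alter a call given here or shift such a count more than 1.5 times.

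The 9 arrays had medians from 7.22 to 7.31, and arrays of one group correlated by 0.985 to 0.997 across genes. Kdm4d read 7.79, 7.54 and 7.74 in wild-type and 7.43, 7.11 and 7.40 in knockdown cells after LPS. The difference of -0.37 did not pass the test (limma adjusted p = 0.278). These values lay near the array medians, no detection calls were used, and RMA compresses differences of dim probe sets. The 11 dendritic cell markers checked averaged 9.83 to 10.82 per array in wild-type cells after LPS and 8.54 to 9.74 in knockdown cells. All 11 differences were below 0, with 0 called by limma, 7 lower at an unadjusted p under 0.05 and 6 lower in the paired fit. Of these markers the integrin Itgax read 12.29 to 13.30 on the 9 arrays, whereas Flt3 read 6.49 to 7.05 and Zbtb46 7.32 to 8.27. The macrophage marker Adgre1 read 12.96 to 13.55 on the same arrays. The 11 macrophage markers averaged 10.56 to 11.27 and 10.16 to 11.33 in the same groups, with 4 differences above 0 and 7 below, a median of -0.05 and 1 called, Spic, which was higher (2.74, adjusted p = 0.0384). The unadjusted p was under 0.05 for 2 higher and 1 lower of these markers, the latter being Csf1r (-0.65, adjusted p = 0.0783). Mast cell markers (9 measured) averaged 7.19 to 7.63 and 6.37 to 6.77, and neutrophil markers (10 measured) 8.69 to 10.3 and 7.38 to 9.64. Limma called 0 of each (unadjusted p under 0.05 for 5 and 3 lower), and the paired fit called 3 and 1 lower. Beside these marker counts, limma called 0.401% of all genes higher and 0.361% lower, and the paired fit 1.51% and 1.24%. The arrays numbered 2 stood apart for several of the genes below: Mgll was lowest there in both wild-type groups, and Lpin1, Dgat1, Dgat2 and Angptl4 were higher on the knockdown array numbered 2 than on the other knockdown arrays.

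The promoter sequences of the droplet-surface genes Plin2, Plin3 and Pnpla2 are shown. All 3 genes read higher in every knockdown array than in every wild-type array after LPS. Mgll, Dgat1 and Angptl4 did so too and are not printed. The sequences come from the RefSeq promoter table (build GRCm38.p6), which gave 9 windows for 6 of the 10 genes: Plin2, Plin3, Pnpla2, Mgll, Lpin1 and Lpin2. The part before the start and outside the annotated gene is printed, 5′ to 3′ on the gene's strand. Capitals mark AGGTCA (the half-site of many nuclear receptors), CCAAT and GGGCGG (the GC box), searched on both strands. The last 2 GC boxes of Plin3 overlap.
Plin2, chr4:86670218-86670309, minus strand: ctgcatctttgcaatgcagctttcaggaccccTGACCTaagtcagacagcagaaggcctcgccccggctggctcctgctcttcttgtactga
Plin3, chr17:56290512-56290761, minus strand: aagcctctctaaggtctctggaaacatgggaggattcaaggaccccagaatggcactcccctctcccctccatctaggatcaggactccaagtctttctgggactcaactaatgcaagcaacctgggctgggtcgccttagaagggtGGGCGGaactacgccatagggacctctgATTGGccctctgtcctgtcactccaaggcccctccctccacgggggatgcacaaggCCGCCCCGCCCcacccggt
Pnpla2, chr7:141454938-141455187, plus strand: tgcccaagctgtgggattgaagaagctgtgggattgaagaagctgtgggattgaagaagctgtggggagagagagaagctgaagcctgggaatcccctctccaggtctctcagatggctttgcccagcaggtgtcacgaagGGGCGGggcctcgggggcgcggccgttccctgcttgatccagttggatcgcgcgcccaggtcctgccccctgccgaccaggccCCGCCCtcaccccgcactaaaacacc

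The printed Plin2 stretch held 1 AGGTCA match, the Plin3 stretch 1 CCAAT and 3 GGGCGG matches, and the Pnpla2 stretch 2 GGGCGG matches. The Plin2 stretch is 92 of the 250 bases and does not reach the start, since the rest lies inside the annotated gene. Its match begins 218 bases before the start. A Plin2 window also held CCAAT, in bases not printed here. Over the 250 bases before the start, AGGTCA was present in 14.0% of the 32851 windows of the table, CCAAT in 33.8% and GGGCGG in 32.7%. AGGTCA lay in 2 of the 9 windows of the described genes, those of Plin2 and Lpin1. The direct repeat of AGGTCA, any base and AGGTCA, a form of element that PPAR and RXR bind together, was in 0 of the 9 and in 0.0335% of all windows. A match is a match of letters, not a site.

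LPS moved genes of triglyceride synthesis in opposite directions in wild-type cells. Dgat2, an acyltransferase of the last step, rose 4.16-fold, and Lpin1, a phosphatase that makes its substrate diacylglycerol, fell 4.87-fold (n = 3 against 3). Plin3, a droplet coat protein that also exists free in the cytosol, fell 1.57-fold. These were the 3 of 10 genes called, against 10.9% of all genes, with 1 higher against 3.99% and 2 lower against 6.86%. The paired fit called the same 3, against 14.8%. Of the 10 differences 9 were below 0, with a median of -0.26, against 0.04 over all genes.

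Dgat2 read 9.18, 10.35 and 8.98 in unstimulated cells and 12.02, 11.01 and 11.66 after LPS. The groups did not overlap, and the array numbered 2 was the highest of the unstimulated and the lowest of the stimulated arrays, so the difference was 2.83, 0.66 and 2.68 by number. The mean difference was 2.06 (SE 0.44, limma adjusted p = 0.0231). Dgat1, the other acyltransferase of this step, read 10.51 ± 0.19 (SD, n = 3) before and 10.23 ± 0.20 after LPS, a difference of -0.28 (95% interval -0.82 to 0.26, adjusted p = 0.475). Whether the responses of the acyltransferases differed from each other was not tested.

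Lpin1 read 11.15, 10.08 and 10.94 before and 8.83, 8.48 and 8.00 after LPS. Every stimulated array lay below every unstimulated one by more than 1 on the log2 scale. The difference was -2.29 (SE 0.46, adjusted p = 0.017). Lpin2, a phosphatase of the same family, read 9.26 ± 0.32 and 9.21 ± 0.33, a difference of -0.05 (95% interval -0.53 to 0.42). In each group the array numbered 2 had the highest Lpin2 value, at 9.63, 9.53 and 9.71 in unstimulated, LPS-treated wild-type and knockdown cells.

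The calls of Dgat2 and Lpin1 were lost when certain single arrays were left out, which also leaves fewer arrays for the test of every gene. Without unstimulated array 1 or 3, or without LPS array 3, both missed the threshold, and Dgat2 also missed it without LPS array 1. The adjusted p then lay between 0.0692 and 0.0889, with differences of 1.79 to 2.01 for Dgat2 and -2.18 to -2.07 for Lpin1. Without the 3 arrays numbered 2, an alternative chosen after seeing the data, the differences were 2.76 (limma adjusted p = 0.000577) and -2.63 (adjusted p = 0.00298).

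Plin3 read 11.40, 11.31 and 11.35 before and 10.72, 10.70 and 10.67 after LPS. The spread within a group was small (SD 0.05 and 0.03), and the difference was -0.65 (SE 0.06, adjusted p = 0.00103), or -0.67, -0.60 and -0.69 by number. Plin2, the perilipin most associated with droplets in cells other than adipocytes, read 12.74, 12.92 and 12.90 before and 12.20, 12.89 and 12.44 after. The groups overlapped through LPS array 2, and the difference of -0.34 did not pass (SE 0.18, adjusted p = 0.262). Without LPS array 2 it was -0.53 (adjusted p = 0.0433).

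Pnpla2, the lipase of the first step of triglyceride breakdown, read 11.69, 11.64 and 11.69 before and 11.42, 11.47 and 11.43 after LPS. The groups did not overlap, but the difference was small, -0.24 (SE 0.06), and its adjusted p was 0.0514 (0.032 without knockdown array 2 and 0.0487 without knockdown array 3, which enter the estimate of spread). With Dgat2, Lpin1 and Plin3 this made 4 of 10 genes without overlap, against 29.3% of all genes. Mgll, the lipase of the last step, which releases glycerol from monoacylglycerol, read 9.12, 7.00 and 8.42 before and 8.31, 6.65 and 7.83 after. Its spread over replicate numbers was wider than the difference of -0.58 (SE 0.58, adjusted p = 0.535).

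Lpl, which encodes lipoprotein lipase, read 13.33 ± 0.19 and 13.22 ± 0.03, a difference of -0.11 (95% interval -0.32 to 0.11, adjusted p = 0.5). Angptl4, its secreted inhibitor, read 6.77, 7.22 and 6.98 before and 6.80, 6.56 and 6.92 after, a difference of -0.23 (SE 0.24, adjusted p = 0.564). These wild-type values of Angptl4 lay at or below the medians of the arrays, and no detection calls were used here.

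**Figure D1:**
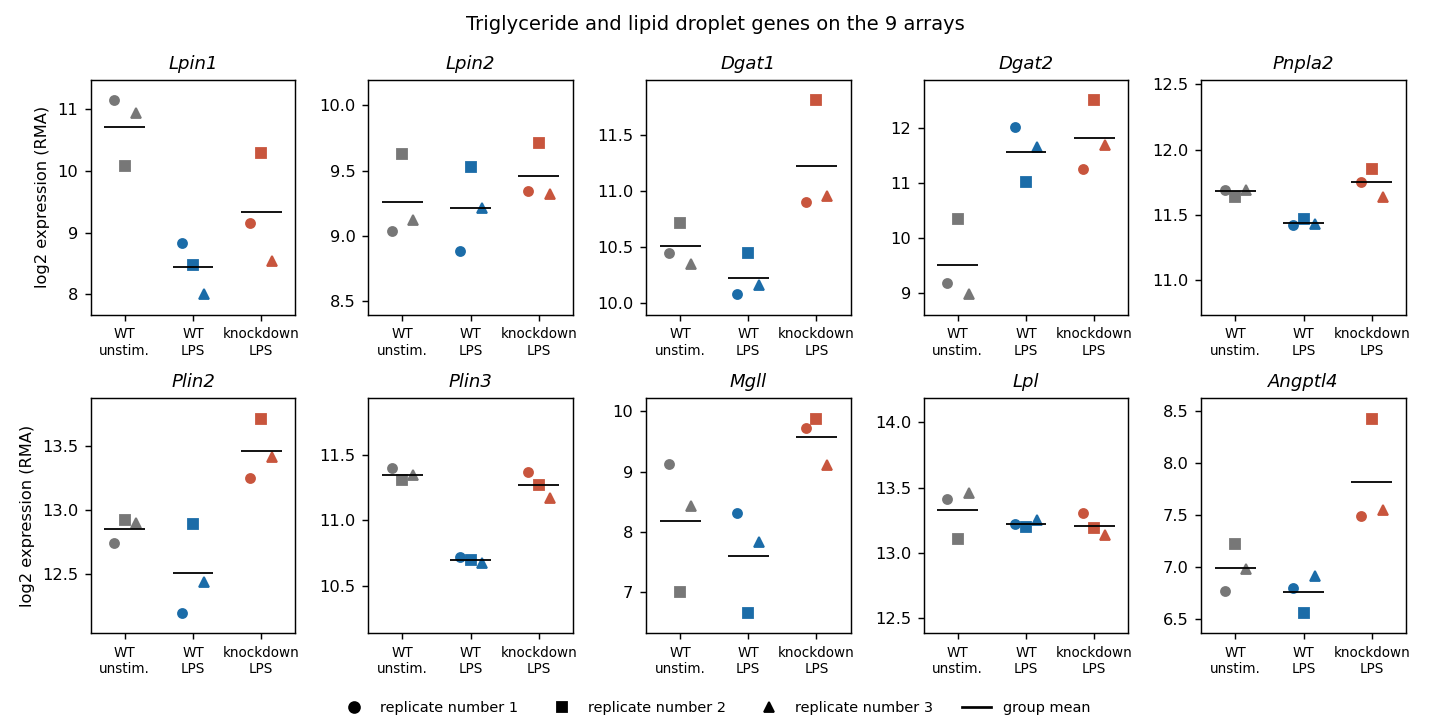
Log2 expression (vertical axes, RMA units) of the 10 genes on the 9 arrays, with a point per array, its shape showing the replicate number, and a line at each group mean. Axis ranges differ between genes. Plin3 was 10.67 to 10.72 after LPS in wild-type cells and 11.17 to 11.40 in the other groups, whereas Mgll and Angptl4 had their highest group mean in knockdown cells.

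After LPS, knockdown cells had higher values than wild-type cells for most of these genes, and Plin3 passed the test. Plin3 was 1.49-fold higher, Plin2 1.93-fold and Dgat1 1.99-fold, with Plin2 and Dgat1 passing in the paired fit but not in the unpaired one (n = 3 against 3). Limma called 1 of 10 genes, against 0.762% of all genes, and the paired fit 3 of 10, against 2.75%. All of these were higher, against 0.401% of all genes higher in the unpaired and 1.51% in the paired fit. Limma called 0 of the 10 lower, against 0.361% and 1.24%. At an unadjusted p under 0.05, a looser threshold than that of these shares, the unpaired fit had 6 higher and 0 lower. Of the 10 differences 9 were above 0, with a median of 0.73, against -0.03 over all genes. In 6 genes the groups did not overlap, against 16.6% of all genes. Since the genes were chosen with earlier results of these data known, these shares are a description. In the same cells the 11 dendritic cell markers had differences below 0 and the macrophage markers moved both ways, by the values given above, and their part in these differences was not tested. In bulk RNA, more cells of a type and more RNA per cell cannot be told apart.

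Among the synthesis genes, Dgat1 read 10.08, 10.45 and 10.16 in wild-type and 10.90, 11.81 and 10.96 in knockdown cells after LPS. All 3 knockdown arrays also lay above all 3 unstimulated arrays (10.35 to 10.72). The difference was 0.99 (SE 0.24, adjusted p = 0.108, paired 0.0205), and by number it was 0.83, 1.36 and 0.80. Dgat2, which LPS had raised, read 11.25, 12.50 and 11.69 in knockdown cells. These overlapped the wild-type arrays given LPS, and the difference of 0.25 had a 95% interval from -0.77 to 1.27 (-0.77, 1.49 and 0.03 by number).

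Lpin1 read 9.16, 10.29 and 8.54 in knockdown cells, against 8.83, 8.48 and 8.00 in wild-type cells after LPS. It was higher within each number, by 0.33, 1.81 and 0.53, but the groups overlapped, and the difference of 0.89 did not pass (SE 0.46, adjusted p = 0.463). Without the arrays numbered 2 it was 0.43 (adjusted p = 0.518). Lpin2 read 9.34, 9.71 and 9.32 in knockdown cells, a difference of 0.25 (95% interval -0.22 to 0.73).

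Both droplet coat genes read higher within every replicate number. Plin3 read 11.37, 11.27 and 11.17 in knockdown cells, above the 10.67 to 10.72 of wild-type cells after LPS, a difference of 0.57 (SE 0.06, adjusted p = 0.0126). Its levels in LPS-treated knockdown and unstimulated wild-type cells differed by -0.08 (95% interval -0.23 to 0.06). The call was lost without LPS array 1 (adjusted p = 0.0585) or LPS array 3 (0.0663), and when the compared groups alone entered the fit (0.0604), with differences of 0.56 to 0.58.

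Plin2 read 13.25, 13.71 and 13.41 in knockdown cells, above all 3 wild-type arrays given LPS and all 3 unstimulated ones. The difference from wild-type cells after LPS was 0.95 (SE 0.18, adjusted p = 0.0636, paired 0.0128), or 1.05, 0.82 and 0.97 by number. Without LPS array 2 it was 1.14 (adjusted p = 0.0219). Pnpla2, the third gene whose promoter is printed above, read 11.75, 11.85 and 11.64 in knockdown cells. Its difference of 0.31 (SE 0.06, adjusted p = 0.0772) came without overlap and was 0.34, 0.38 and 0.22 by number.

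Mgll had the largest difference of the 10, a 3.93-fold higher value that did not pass (1.97, SE 0.58, adjusted p = 0.174). It read 9.73, 9.88 and 9.11 in knockdown cells and 8.31, 6.65 and 7.83 in wild-type cells after LPS. The groups did not overlap, and the difference by number was 1.42, 3.23 and 1.28.

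Angptl4 read 7.49, 8.43 and 7.55 in knockdown cells, above the 6 wild-type arrays, whose highest value was 7.22. The difference was 1.06 (SE 0.24, adjusted p = 0.0995), or 0.70, 1.87 and 0.63 by number. Lpl, whose product Angptl4 inhibits, read 13.31, 13.19 and 13.14, a difference of -0.01 with a 95% interval from -0.23 to 0.21.

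**Figure D2:**
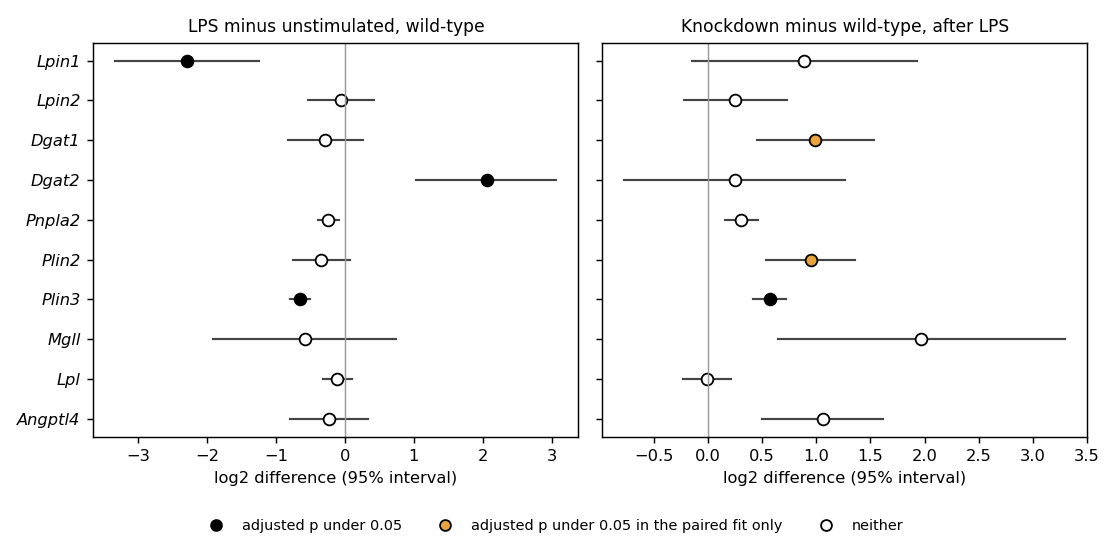
Log2 differences (horizontal axes) of the 10 genes for LPS in wild-type cells (left) and for knockdown against wild-type cells after LPS (right), with 95% intervals from limma and fills for the calls. The scales of the panels differ, and both comparisons share the 3 wild-type arrays given LPS. Plin3 is called in both, at -0.65 and 0.57.

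**Figure D3:**
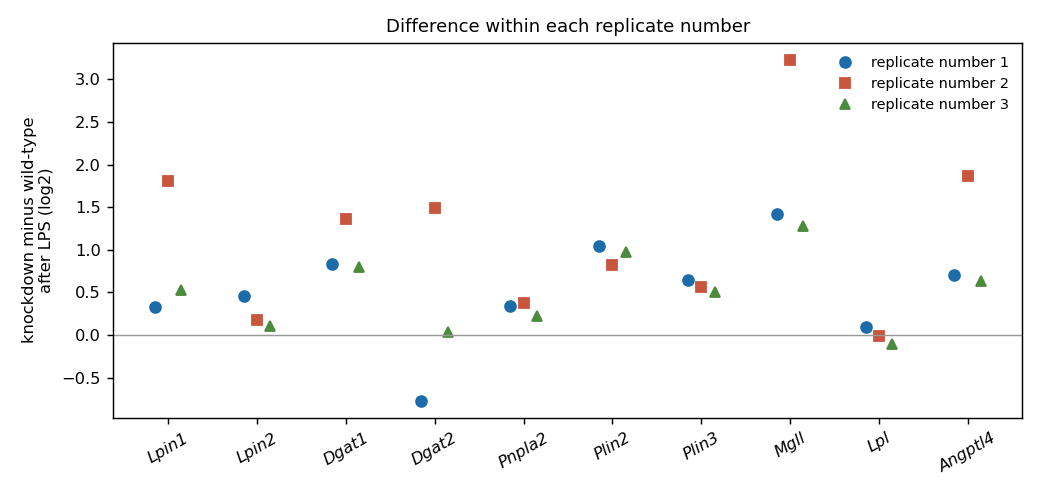
Difference between knockdown and wild-type cells after LPS (vertical axis, log2) within each replicate number, with 3 points per gene. Plin2, Plin3 and Pnpla2 have similar values over the numbers, whereas number 2 lies highest for Lpin1, Dgat1, Dgat2, Mgll and Angptl4.

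The array pair numbered 2 gave the largest knockdown difference for Lpin1, Dgat1, Dgat2, Mgll, Angptl4 and, by a small margin, Pnpla2. With the 3 arrays of that number left out, limma called 4 of the 10 genes in knockdown cells, against 3.35% of all genes, and all 4 were higher, against 2.14% higher and 1.21% lower. These were Plin3 (0.58, adjusted p = 0.0332), Plin2 (1.01, 0.0202), Dgat1 (0.81, 0.0129) and Angptl4 (0.66, 0.0321). Mgll was at 1.35 (adjusted p = 0.0855). For LPS in wild-type cells the same alternative called 6 of 10, against 24.6% of all genes, adding Plin2 (-0.50), Pnpla2 (-0.27) and Dgat1 (-0.28) on the lower side.

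Knockdown cells after LPS were also set against unstimulated wild-type cells, a comparison that shares arrays with both others. Dgat2 was higher by 2.31 (SE 0.44, limma adjusted p = 0.0143), the single call among the 10 against 10.9% of all genes, and 4 of 10 genes had no overlap, against 27.3%. The paired fit called 3 of 10, against 14.3% of all genes, adding Plin2 (0.60, adjusted p = 0.0704, paired 0.0117) and Dgat1 (0.72, adjusted p = 0.0988, paired 0.015). Angptl4 was at 0.83 (adjusted p = 0.0679), Mgll at 1.39 (0.191) and Lpin1 at -1.40 (0.0963), or -1.88 without knockdown array 2 (0.021). Without unstimulated array 1 or 3 the Dgat2 call was lost (adjusted p = 0.0584 and 0.0598), and without LPS array 2, which enters the estimate of spread, Plin2 passed (0.0227). Without the arrays numbered 2, limma called 5 of 10, against 19.1% of all genes: Plin2, Dgat1, Dgat2 and Angptl4 higher and Lpin1 lower, at -2.20 (adjusted p = 0.00676).

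The 3 group means fell into different orders. For Dgat1, Plin2, Pnpla2, Mgll, Angptl4 and Lpin2 the order from the top was knockdown LPS, unstimulated, wild-type LPS. Of the neighbours in these orders, Dgat1 and Plin2 differed between knockdown and unstimulated cells in the paired fit, and unstimulated and wild-type LPS means were not called apart in either fit of all arrays. For Lpin1 and Plin3 the order was unstimulated, knockdown LPS, wild-type LPS: unstimulated and knockdown cells were not called apart for either gene, and knockdown and wild-type LPS cells were for Plin3. For Dgat2 both LPS-treated groups lay above the unstimulated one and were not called apart. The Lpl means spanned 0.11, with no call.

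Among 1072 other genes whose group means span at least 1 on the log2 scale, the 3 with values most like those of Dgat2 over the 9 arrays were Plscr1 (Pearson's r = 0.972), Bcl3 (0.972) and Lrrc75a (0.965). Those most like Lpin1 were Arhgap18 (0.981), Cdh1 (0.97) and Ssh2 (0.969). The arrays share their groups, so these values are a description.

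Other genes of triglyceride storage were described by the same counts. Of 13 measured genes of glycerolipid synthesis outside the 10 (acyltransferases such as Gpam and the Agpat family), limma called 0 in wild-type cells after LPS (unadjusted p under 0.05 for 1 higher and 1 lower). It called 0 between knockdown and wild-type cells (1 higher and 0 lower unadjusted). Of 14 measured lipid droplet proteins limma called 0 in either comparison, with an unadjusted p under 0.05 for 0 higher and 1 lower after LPS and for 0 higher and 2 lower in the knockdown. The paired fit added 1 call in these lists, Gpam lower after LPS (-0.62, adjusted p = 0.102, paired 0.0426), beside 1908 of all 19938 genes lower. Against unstimulated cells, limma called 2 of the 13 synthesis genes higher in knockdown cells, beside 843 of all 19938 genes. They were Agpat4 (0.65, adjusted p = 0.0248) and Agpat5 (0.32, adjusted p = 0.0472, paired 0.0663). It called 0 droplet proteins (unadjusted p under 0.05 for 1 higher and 3 lower). The perilipins Plin1, Plin4 and Plin5 differed between knockdown and wild-type cells by 0.03, -0.05 and -0.09. The median knockdown difference was 0.09 for synthesis and -0.03 for droplet proteins, beside 0.73 for the 10 genes and -0.03 over all genes. The 10 genes and the lists were chosen with earlier results of these data known, so these medians are a description.

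Of 8 genes of lipolysis and its regulators limma called 0 in either comparison. The unadjusted p was under 0.05 for 0 higher and 3 lower after LPS, and for 2 higher and 1 lower in the knockdown. Of the 8 knockdown differences 7 were above 0 and 1 below, with a median of 0.19, against -0.03 over all genes. The paired fit called 1 in each direction for the knockdown, against 1.51% of all genes higher and 1.24% lower. They were named after their values were seen. Abhd5, the coactivator of the lipase encoded by Pnpla2, read 11.18, 11.33 and 11.23 in wild-type and 11.57, 11.75 and 11.66 in knockdown cells after LPS (0.41, adjusted p = 0.0513, paired 0.0252). Lipe, hormone-sensitive lipase, which acts on diacylglycerol, read 9.90, 9.95 and 9.74 in wild-type and 8.81, 8.83 and 8.85 in knockdown cells (-1.03, adjusted p = 0.0536, paired 0.0378). In this list 4 of 8 genes had no overlap of groups, against 16.6% of all genes.

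Of 16 measured genes of lipase partners and fatty acid uptake, 2 rose and 2 fell after LPS in wild-type cells, against 3.99% and 6.86% of all genes. Fabp3, a fatty acid binding protein, rose by 1.79 (SE 0.33, adjusted p = 0.0131), and Acsl4, a fatty acid activating enzyme, rose by 0.42 (adjusted p = 0.0158). Lmf1, which matures lipoprotein lipase in the endoplasmic reticulum, fell by 0.47 (adjusted p = 0.031), and Fabp5 fell by 0.29 (adjusted p = 0.0482). The paired fit called 3 higher and 3 lower, adding Lipg, the endothelial lipase, of the same family as Lpl (1.63, adjusted p = 0.0746, paired 0.034), and Slc27a1, a fatty acid transport protein (-0.80, adjusted p = 0.15, paired 0.00914). The median was 0.09, against 0.04 over all genes. Between knockdown and wild-type cells limma called 0 of the 16, with an unadjusted p under 0.05 for 1 higher and 4 lower. The paired fit also called 0.

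All 10 fatty acid synthesis genes had differences below 0 after LPS in wild-type cells, with a median of -0.35 against 0.04 over all genes, and 2 were called, against 6.86% of all genes lower. They were Scd2, a desaturase (-0.42, SE 0.09, adjusted p = 0.02), and Fads1, a desaturase of polyunsaturated fatty acids (-0.62, SE 0.15, adjusted p = 0.0338). The paired fit called 3 lower, adding Fasn, the fatty acid synthase (-0.28, adjusted p = 0.571, paired 0.0344). Between knockdown and wild-type cells limma called 0 of 10 in either fit (unadjusted p under 0.05 for 1 higher and 0 lower).

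**Figure D4:**
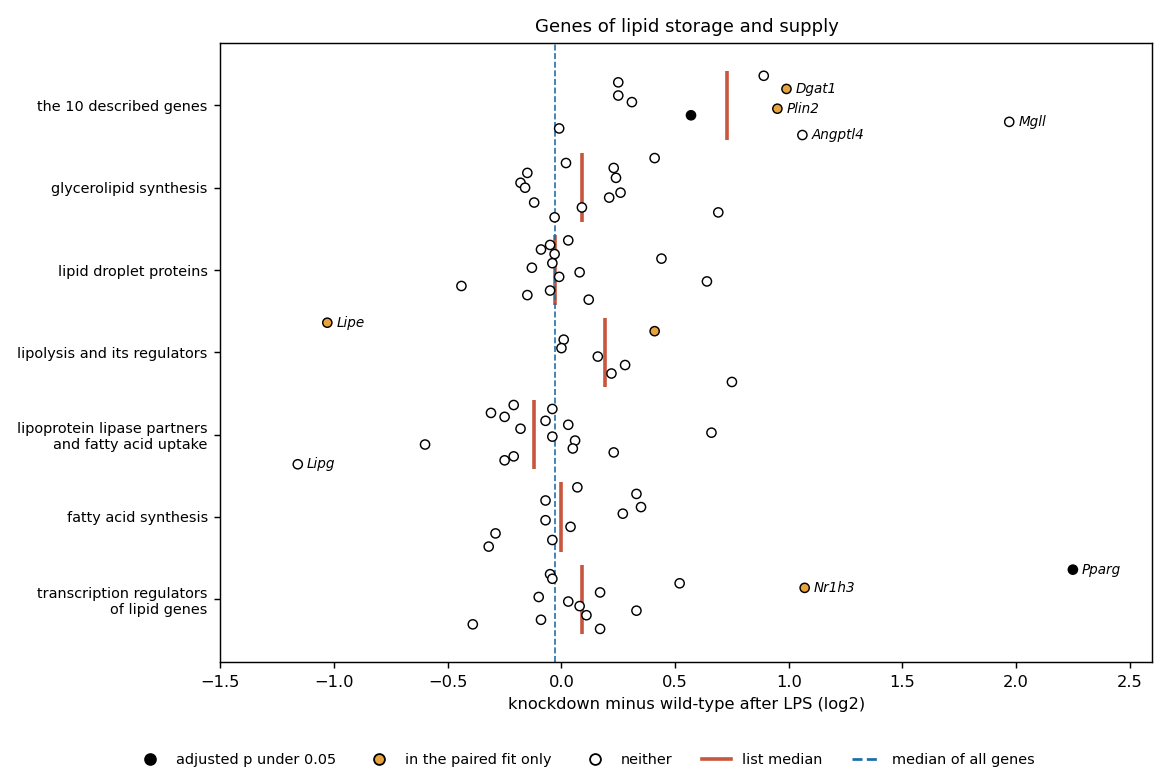
Difference between knockdown and wild-type cells after LPS (horizontal axis, log2) for the 10 described genes and 6 lists of related genes, with a point per gene filled by its call, red lines at list medians and a dashed line at the median of all genes. Genes far from 0 are named. Pparg lies farthest to the right, at 2.25, and the 10 described genes have a median of 0.73.

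Among 14 measured transcription regulators of lipid genes, 2 rose and 2 fell after LPS, against 3.99% and 6.86% of all genes. Nr1h3, the oxysterol receptor LXR alpha, rose by 1.11 (SE 0.29, adjusted p = 0.0469), and Nr3c1, the glucocorticoid receptor, rose by 0.75 (adjusted p = 0.009). Cebpa, a transcription factor of myeloid and fat cells, fell by 0.95 (adjusted p = 0.0437), and the coactivator Ppargc1b fell by 0.63 (adjusted p = 0.0197). The paired fit called 2 higher and 4 lower, adding Rxra, the partner receptor of PPARs (-0.81, adjusted p = 0.082, paired 0.0204), and Pparg (-0.33, adjusted p = 0.272, paired 0.0483). Between knockdown and wild-type cells after LPS 1 was called, Pparg, the nuclear receptor best known for driving lipid storage in adipocytes.

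Pparg read 9.76, 10.19 and 9.94 in unstimulated cells, and after LPS 9.47, 9.74 and 9.66 in wild-type and 11.54, 12.23 and 11.88 in knockdown cells. Every knockdown array was higher than every wild-type array by more than 1 on the log2 scale. The difference after LPS was 2.25 (SE 0.18, adjusted p = 0.00673). Nr1h3, named here after its value was seen, read 9.30, 9.77 and 10.47 in wild-type and 10.73, 10.83 and 11.20 in knockdown cells after LPS (1.07, adjusted p = 0.149, paired 0.0345). Fabp4 and Cd36, known PPAR targets among the uptake genes and named after their values were seen, differed by 0.05 (adjusted p = 0.953) and 0.66 (adjusted p = 0.584). Cd36 was dim, at 5.24 to 6.15 on the wild-type arrays, and its difference was -0.33, 1.66 and 0.65 by number. PPAR activity was not tested.

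**Figure D5:**
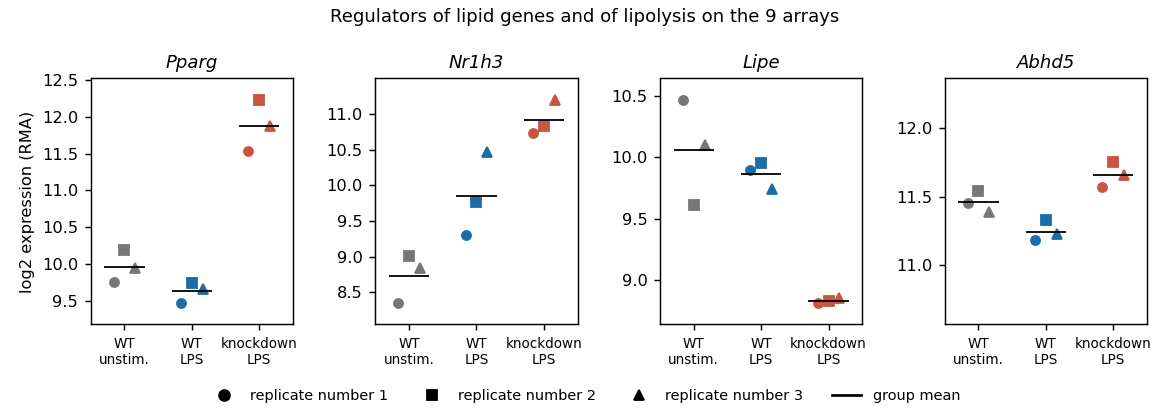
Log2 expression (vertical axes, RMA units) of Pparg, Nr1h3, Lipe and Abhd5 on the 9 arrays, with a point per array and a line at each group mean. The 3 knockdown arrays lie above all wild-type arrays for Pparg (11.54 to 12.23) and below them for Lipe (8.81 to 8.85).

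Adipocytes, a cell type in which several of these genes are abundant, were checked through 6 measured markers. Adipoq read 5.29 to 5.52 and Lep 5.65 to 5.94 on the 9 arrays, both below the array medians. Retn (6.82 to 7.36), Plin1 (7.13 to 7.63) and Cidec (7.35 to 7.57) read near those medians, and Lipe (8.81 to 10.47) above them. The 6 markers averaged 7.21 to 7.29 in wild-type and 7.00 to 7.05 in knockdown cells after LPS. Limma called 0 (unadjusted p under 0.05 for 0 higher and 1 lower). The paired fit called 1 lower, Lipe, against 1.24% of all genes lower.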

How the data were processed

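The deposited values are log2 expression per probe set, made by the authors with RMA per the submitters' processing notes. The version and the annotation are not given in the sources used here. RMA compresses differences of dim probe sets. Of 35556 probe sets, 21789 named 1 gene in the platform's gene table and 1621 several. Symbols were updated through the RefSeq table of GRCm38.p6, and the probe set with the highest mean over the 9 arrays stood for its gene, giving 19938 genes. Probe sets naming several genes or none were left out.

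Limma 3.58.1 under R 4.3.3 estimated each group's mean from the 9 arrays (two-sided empirical Bayes tests, 6 residual and 2.31 prior degrees of freedom). The script was tested on simulated data. Deviations from group means correlated by 0.14 to 0.48 where array numbers matched (9 pairs), and elsewhere by -0.41 to 0.25 (18 pairs). The pairing comes from this check, since the labels do not state what a number marks, and the 2 ranges overlap. The design speaks of independent cultures. The p-values of the unpaired fit measure differences against the spread between arrays of a group, and take arrays of the same number as independent. Those of the paired fit measure them against the spread left once the number is accounted for. The number of arrays limits the precision.

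The 10 genes and the lists were chosen with earlier results of these data known. From the lists, members called after LPS or in the knockdown and Pparg were named by rule. Other list members (Plin1, Plin4, Plin5, Fabp4, Cd36, Agpat4, Agpat5, Cebpb and marker genes) were named after their values were seen. Also named were, for the 2 genes with the widest range of group means, the 3 genes most alike. Alternatives were the replicate block, each array left out, quantile normalization, median centring, a filter on dim genes, the mean of a gene's probe sets, the compared groups alone, a trended robust prior and, added after seeing the data, leaving out the arrays numbered 2.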

Additional observations from a re-analysis of the deposited data

How the results depend on the processing

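Of 507 differences of the 10 genes recomputed under the alternatives, 461 kept their direction and their side of the threshold, 24 passed it newly, 12 no longer passed and 10 changed sign. The sign changes lay in 3 differences that were not called. Lpin2 after LPS was 0.052 with quantile normalization, and -0.22 to 0.13 with an array left out. Lpl in the knockdown was 0.027 with median centring, and -0.056 to 0.026 with an array left out. Dgat2 in the knockdown was -0.093 to 0.53 with an array left out, negative without LPS or knockdown array 2, and -0.37 without the arrays numbered 2. The replicate block (the paired fit) called 3 of the 10 genes higher in knockdown than in wild-type cells after LPS, 3 higher than in unstimulated cells, and 301 higher and 247 lower among all genes in the first of these comparisons. It changed no call of the 10 genes for LPS in wild-type cells. Among genes above the median level, and with the trended robust prior, 2 of the 10 were higher in knockdown than in wild-type cells after LPS, Plin3 and Plin2. Against unstimulated cells 2 were higher among genes above the median level and with the compared groups alone. With the compared groups alone, limma called 0 of the 10 in knockdown against wild-type cells after LPS (6 higher at an unadjusted p under 0.05), and 14 genes higher and 19 lower overall. Quantile normalization called 111 genes lower there. Leaving out arrays gave ranges of calls. For LPS in wild-type cells they were 0 to 1 of the 10 higher and 1 to 5 lower, with 393 to 1757 and 475 to 3152 among all genes. For knockdown against wild-type cells they were 0 to 4 of the 10 higher, with 11 to 427 higher and 7 to 241 lower among all genes. For knockdown against unstimulated cells they were 0 to 4 higher and 0 to 1 lower, with 433 to 1313 and 601 to 2490 among all genes. The cause of these changes was not tested. Groups of 3 arrays, and dim signal for Angptl4, limit what these data can resolve.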
